A study of Homo sapiens with 3 samples.

Results

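A set of 10 long non-coding RNAs (lncRNAs) widely studied in cancer was followed across SMARCA4 knockdown in HCT116 cells: NEAT1, MALAT1, GAS5, SNHG1, SNHG5, H19, MEG3, CCAT1, PVT1 and TUG1. They were taken by their gene names in the array files, each non-control probe separately, which gave 10 of 43317 gene names and 42 of 58201 probes. RefSeq lists 9 of the 10 as lncRNA and TUG1 as protein coding. HCT116 is a human colorectal cancer cell line, and SMARCA4 (BRG1) is an ATPase of the SWI/SNF chromatin remodelling complex. Cells were transfected with small interfering RNA (siRNA) against SMARCA4 or with a scrambled negative control (NC), and total RNA was measured on single-colour arrays, 1 array each for SMARCA4-KD1 (KD1), SMARCA4-KD2 (KD2) and NC.

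The records give the 2 siRNAs but do not say which of them was used in which knockdown.

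The sample titles name SMARCA4 while the treatment field names PRMT1, so both genes were read first. The SMARCA4 probe had an intensity of 3960.2 in KD1, 4129 in KD2 and 14026 in NC, which left 26.6% and 28.8% of the NC level. PRMT1, an arginine methyltransferase, had 9801 and 10147 in the knockdowns and 7683 in NC, log2 fold changes of 0.27 and 0.37. Of the epithelial markers 8 of 10 were well above background on all 3 arrays, and CEACAM5 and VIL1 were not. Of the non-epithelial markers 5 of 10 were, with a highest NC intensity of 348 for COL1A1. Summed over the list the epithelial intensities were 443903 to 453191 on the 3 arrays and the non-epithelial ones 839 in NC and 1159 to 1166 in the knockdowns, whose part in the lncRNA values was not tested.

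With no second array of any condition, the spread between replicates is unknown and differences against NC have no replicate check. KD1 and KD2 were hybridised on slide 1 and NC on slide 2, so that slide and knockdown cannot be told apart. Intensities are printed as deposited, before scaling. Changes are given as log2 fold changes between values scaled to the 75th percentile of each array, with the error that Agilent's extraction software assigns to a signal, carried through to the difference (± 0.20 to 0.52 over the lncRNA probes). It describes a single spot, not a culture. Repeated spots of a probe varied by a median SD of 0.029 to 0.037 (log2) within an array.

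The 10 RNAs work in different ways. NEAT1 is the scaffold of paraspeckles, nuclear bodies that hold RNA-binding proteins, and MALAT1 is a nuclear RNA found at splicing speckles. The genes of both lie next to each other on chromosome 11. GAS5, SNHG1 and SNHG5 are host genes, whose introns carry small nucleolar RNAs (snoRNAs) and whose spliced RNAs are classical substrates of nonsense-mediated decay. H19 and MEG3 are imprinted RNAs made from the maternal allele. CCAT1 and PVT1 flank MYC on chromosome 8, and TUG1 was named after its response to taurine in the retina.

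The sequences of the NEAT1 probes are shown because NEAT1 had the largest change of the 10 RNAs, and its probes did not move by the same amount. Capitals mark the 19 bases that probes 1 and 2 share, so that these are not independent readings (chr11:65192168-65192227 and chr11:65192209-65192268, hg19, plus strand). Probe 3 lies 1616 bases downstream of probe 2 (chr11:65193885-65193944).

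NEAT1 probe 1: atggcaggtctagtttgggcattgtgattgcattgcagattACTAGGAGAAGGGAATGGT

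NEAT1 probe 2: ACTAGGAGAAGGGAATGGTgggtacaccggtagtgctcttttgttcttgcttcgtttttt

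NEAT1 probe 3: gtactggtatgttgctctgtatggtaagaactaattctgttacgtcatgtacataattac

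The last 2 MALAT1 probes are shown because they lie 97 bases apart and changed in opposite directions (chr11:65273714-65273773 and chr11:65273871-65273930, hg19, plus strand). Capitals mark AATAAA, the letters of the common polyadenylation signal. On the sense strand 4567 of all 58201 probes hold these letters (7.85%), among them 3 of the 42 lncRNA probes, 1 each of MALAT1, GAS5 and MEG3.

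MALAT1 probe 3: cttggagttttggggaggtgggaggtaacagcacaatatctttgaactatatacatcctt

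MALAT1 probe 4: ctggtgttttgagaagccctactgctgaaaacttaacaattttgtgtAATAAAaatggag

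Of the 42 probes, 38 were well above background on at least 1 array and were kept, and 37 on all 3. The 4 that were not kept were 3 of the 7 MEG3 probes and 1 of the 3 SNHG1 probes. All other RNAs had every probe well above background in NC, KD1 and KD2.

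**Figure D1:**
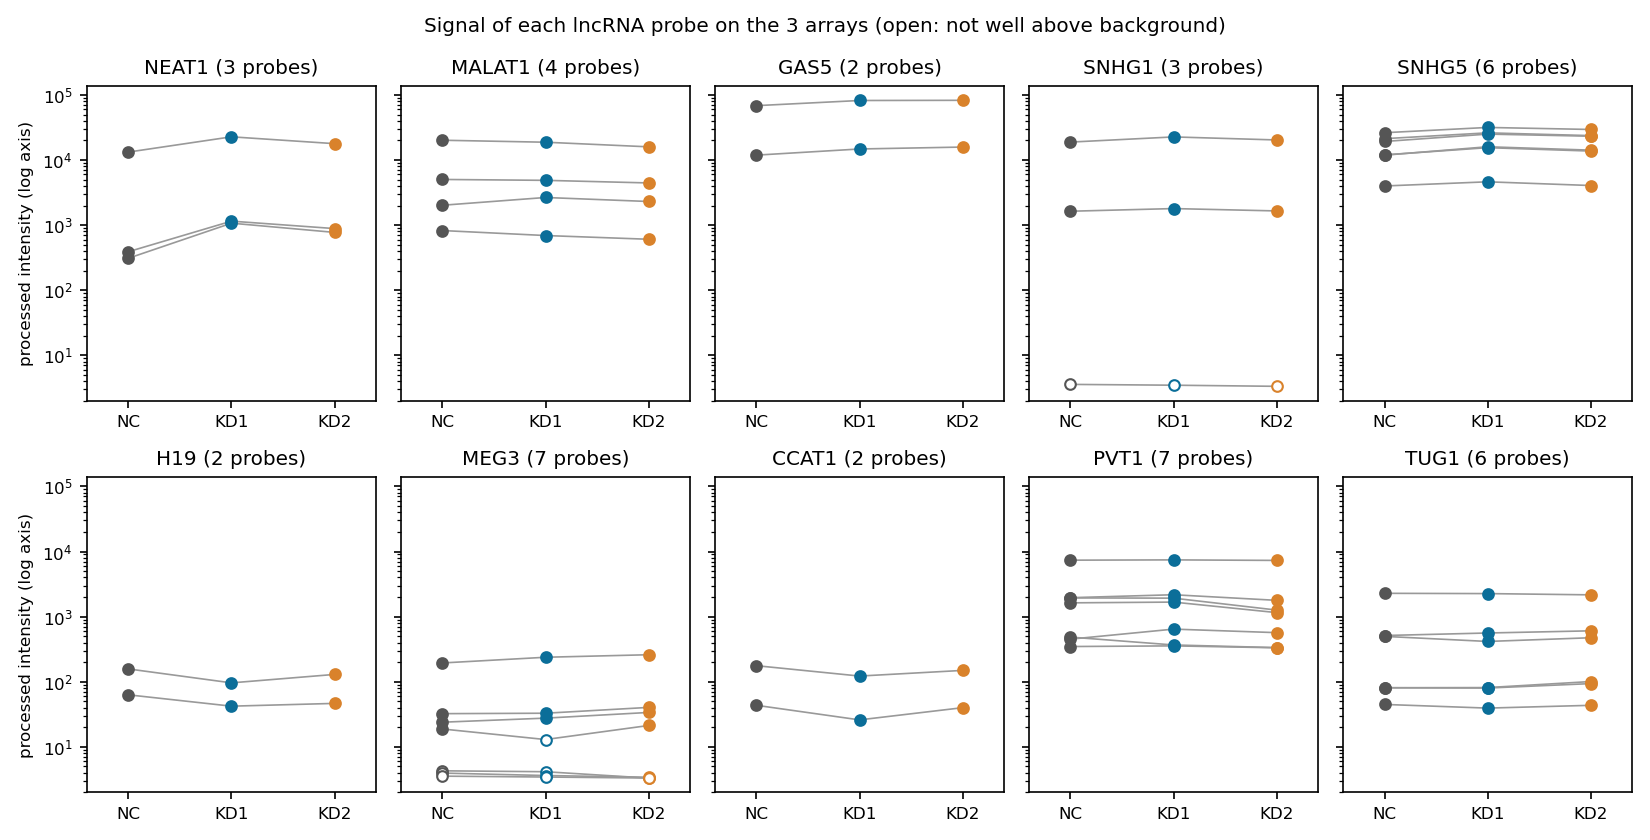
Processed intensity (log axis) of each of the 42 lncRNA probes in NC, KD1 and KD2, 1 line a probe, with open symbols for values not well above background. The 3 NEAT1 lines are higher in both knockdowns than in NC, and the H19 and CCAT1 lines are lower in both.

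At 1.5-fold, the fold threshold of the study's methods, 3 of the 38 kept probes were higher in KD1, against 11.5% of all 29334 kept probes, and 4 were lower, against 12.1%. In KD2, 2 were higher, against 10.2% of all probes, and 1 was lower, against 9.83%. Probes higher in both knockdowns numbered 2, against 6.56% of all, and none was lower in both, against 8.0%. As shares of the 38 these counts were 7.89% higher and 10.5% lower in KD1, 5.26% and 2.63% in KD2, and 5.26% and 0.0% in both. They overlap, and no difference from the background share was tested. Their median log2 fold change was -0.0026 in KD1 and 0.10 in KD2, beside -0.00062 and 0.018 over all kept probes. The probes past 1.5-fold belonged to 4 RNAs: NEAT1 was higher, and H19, CCAT1 and a single PVT1 probe were lower.

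**Figure D2:**
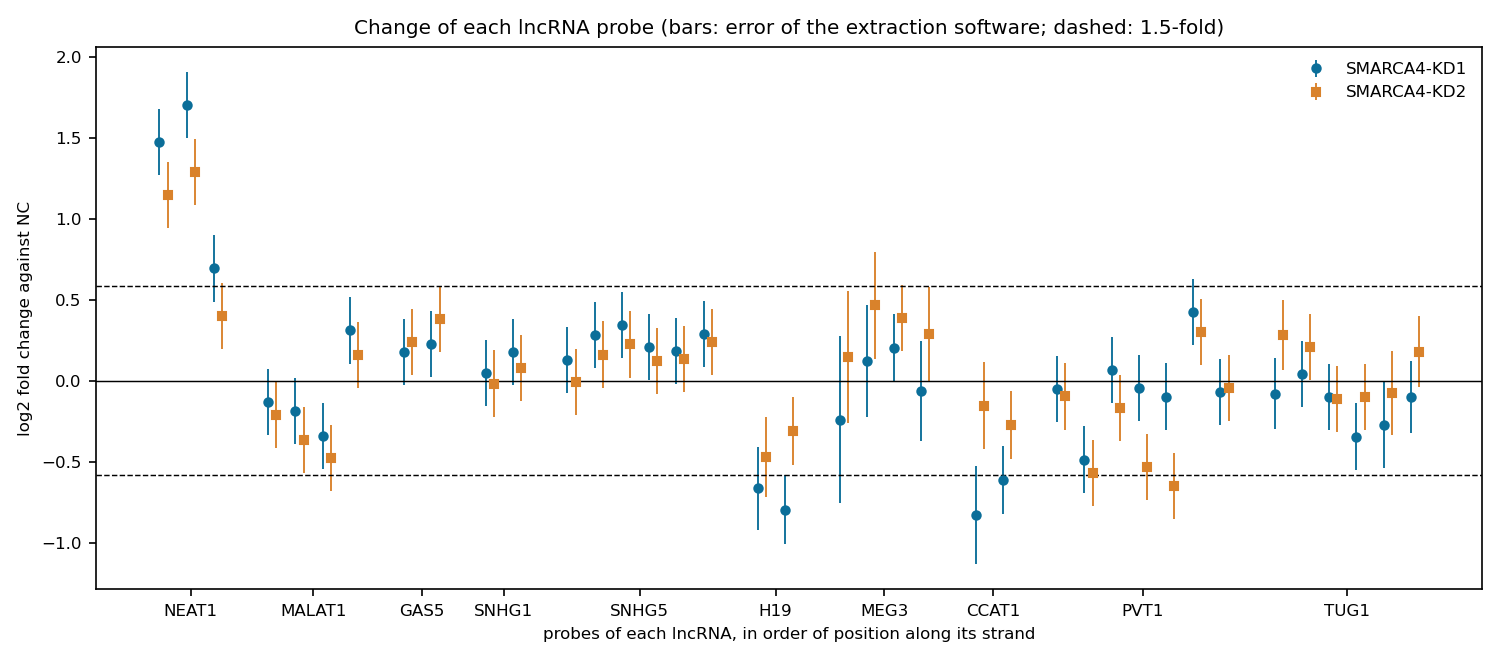
Log2 fold change against NC of the 38 kept lncRNA probes in KD1 (circles) and KD2 (squares), with the error of the extraction software as bars and 1.5-fold as dashed lines. The first 2 NEAT1 probes stand above the upper line in both knockdowns, and no probe lies below the lower line in both.

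NEAT1 was higher than in NC on both knockdown arrays at all 3 probes. The first probe read 390 in NC, 1151 in KD1 and 885 in KD2. The second read 310 in NC, 1072 in KD1 and 773 in KD2. Probe 3 read 13239 in NC, 22721 in KD1 and 17832 in KD2. At each probe the order was the same, KD1 highest, KD2 next and NC lowest.

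The first NEAT1 probe was 2.78-fold above NC in KD1 and 2.22-fold in KD2 (log2 1.47 ± 0.20 and 1.15 ± 0.20). The second was 3.26-fold and 2.44-fold above NC (1.70 ± 0.20 and 1.29 ± 0.20), higher than 99.1% and 98.7% of all kept probes. The third was 1.62-fold and 1.32-fold above NC (0.69 ± 0.20 and 0.40 ± 0.20), and with quantile normalization its KD1 value was 0.579, just under 1.5-fold. Thus the change of the overlapping pair was larger than that of the third probe. Probes 2 and 3 differed in log2 fold change by 1.01 ± 0.29 in KD1 and by 0.89 ± 0.29 in KD2. Which NEAT1 isoforms these probes read was not tested.

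Between the knockdowns, NEAT1 was higher in KD1 by 1.23-fold to 1.34-fold at the 3 probes. These differences in log2, 0.30 to 0.42, were larger than the extraction error of 0.20 and larger than the median absolute difference between the knockdowns over all kept probes, 0.14.

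NEAT1 binds a group of paraspeckle proteins, including NONO, SFPQ and PSPC1, and these were set beside it. All 15 of the proteins in the list were measured. Their median log2 fold change was -0.16 in KD1 and -0.21 in KD2, beside -0.0038 and 0.020 over all 22620 genes. At least 1.5-fold in both knockdowns, 1 was higher and 1 was lower, against 1436 and 1820 of the 22620 genes. The higher one was CIRBP, a cold-inducible RNA-binding protein, with intensities of 6251 and 6267 in the knockdowns and 3708 in NC (log2 0.67 and 0.72). The lower one was TAF15, an RNA-binding protein related to EWSR1, with 5904 and 6674 in the knockdowns and 11531 in NC (log2 -1.05 and -0.82).

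MALAT1 changed by less than 1.5-fold at all 4 probes. The first probe read 5030 in NC, 4873 in KD1 and 4446 in KD2. The second read 20130 in NC, 18768 in KD1 and 15944 in KD2, and probe 3 read 826, 692 and 607. These 3 were lower than NC on both knockdown arrays, most in KD2, where probe 3 was 1.39-fold lower (log2 -0.48 ± 0.20). In KD1 probes 1 and 2 were within the extraction error (log2 -0.13 ± 0.20 and -0.19 ± 0.20). In KD2 probe 1 was at its edge (-0.21 ± 0.20). The fourth, at the 3′-most position, read 2019 in NC, 2658 in KD1 and 2306 in KD2, higher than NC on both (log2 0.31 ± 0.20 and 0.16 ± 0.20). Probes 4 and 3, 97 bases apart, differed in log2 fold change by 0.65 ± 0.29 in KD1 and 0.64 ± 0.29 in KD2.

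All 15 listed proteins of nuclear speckles, the bodies at which MALAT1 is found, were measured. Their median log2 fold changes were -0.098 and -0.22, beside -0.0038 and 0.020 over all genes. RNPS1, a splicing activator that joins the exon junction complex, was the single one at least 1.5-fold from NC in the same direction in both knockdowns. It read 8642 and 8094 against 5206 (log2 0.65 and 0.60). Of all 22620 genes, 1436 were higher and 1820 lower in both by this threshold.

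The snoRNA host RNAs GAS5, SNHG1 and SNHG5 gave bright signals and small differences. Of their 10 kept probes, 8 were higher than NC in both knockdowns, none was lower in both, and none reached 1.5-fold. The median log2 fold change of the 10 was 0.20 in KD1 and 0.15 in KD2. However, 8 of the 10 were in the brightest 10% of all kept probes, where the median probe was also higher in the knockdowns, by 0.11 and 0.12.

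GAS5 read 68401 in NC, 82076 in KD1 and 82613 in KD2 at its first probe. The second read 11887, 14775 and 15816, which was 1.30-fold above NC in KD2 (log2 0.38 ± 0.20) and 1.17-fold in KD1. Both probes were above NC on both knockdown arrays, the first in KD1 within the extraction error (log2 0.18 ± 0.20). Both were slightly higher in KD2 than in KD1, also within that error (log2 -0.063 ± 0.20 and -0.15 ± 0.20 for KD1 minus KD2). SNHG1 read 18851 in NC, 22632 in KD1 and 20330 in KD2 at its second probe, and 1635, 1796 and 1652 at its first. All 4 of these SNHG1 differences were within the extraction error, the largest being 0.18 ± 0.20.

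SNHG5 had 6 probes, of which probes 2 and 3 share 59 bases and probes 5 and 6 share 52. All 6 were higher than NC in KD1 (log2 0.13 to 0.34) and 5 in KD2 (-0.0086 to 0.24). The differences of probes 1 and 5 in KD1 and of probes 1, 2, 4 and 5 in KD2 were within the extraction error of 0.20. Probe 3 had the highest fold change in KD1, with 11871 in NC, 15978 in KD1 and 14178 in KD2. Its neighbour that shares 59 bases read 11993, 15486 and 13722, a similar change.

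Genes of this class often start with a run of pyrimidines, the mark of growth-regulated TOP RNAs. The RefSeq start sites are shown for this reason (GRCh38.p14, minus strand), as the 10 bases before the start and the 40 from it, with capitals on the unbroken run of C and T that begins at the start. The run was 3 bases in SNHG1, 5 in SNHG5 and 0 in GAS5, each at the first start that RefSeq lists for the gene. Any other listed start was not read, so a run at another start of GAS5 would not be seen. Of 27305 RefSeq genes, 2049 (7.5%) begin with C in a run of at least 3 and 1104 (4.04%) in a run of at least 5.

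GAS5 start, chr1:173869006-173869055: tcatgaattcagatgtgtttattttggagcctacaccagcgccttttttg

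SNHG1 start, chr11:62855846-62855895: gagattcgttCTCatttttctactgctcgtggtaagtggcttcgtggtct

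SNHG5 start, chr6:85678694-85678743: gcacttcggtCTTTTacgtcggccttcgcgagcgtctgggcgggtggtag

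The RefSeq promoters of 7 of the 10 RNAs were also searched on both strands for CACGTG, the E-box that MYC binds, and TGANTCA, the AP-1 motif. NEAT1, CCAT1 and PVT1 were not among the 7. Of the RNAs with a probe past 1.5-fold, H19 alone was therefore searched. CACGTG was found in TUG1, against 7.43% of 27305 promoters, and TGANTCA in none of the 7, against 7.76%.

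Other snoRNA host genes were compared as a list of 20, which leaves out the 3 described above. Of 19 measured, 6 were at least 1.5-fold higher in KD1 and 4 in KD2, and the same 4 were higher in both, beside 2528, 2294 and 1436 of all 22620 genes. The median log2 fold change was 0.41 and 0.29, beside -0.0038 and 0.020 over all genes. Many genes of this list also gave bright signals, and in the brightest 10% of all kept probes the medians were 0.11 and 0.12. The 4 were SNHG9, with 54535 and 44315 in the knockdowns and 23791 in NC, SNHG8, SNHG17 and DANCR, and their log2 fold changes were 0.84 to 1.11 in KD1 and 0.66 to 0.88 in KD2. GAS5-AS1, named to complete the count, is antisense to GAS5 rather than a host. It was not well above background in the knockdowns and was at least 1.54-fold lower in both. In KD1 the 10 kept probes of GAS5, SNHG1 and SNHG5 ran from 0.050 to 0.34 and in KD2 from -0.017 to 0.38, on both sides of the median of the list in KD2. The difference from the list was not tested.

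Nonsense-mediated decay factors, whose pathway degrades spliced host RNAs, had median log2 fold changes of 0.26 and 0.18 over 15 genes. The medians over all genes were -0.0038 and 0.020. Several of the 15 also gave bright signals, and in the brightest 10% of all kept probes the medians were 0.11 and 0.12. PNRC2, which links the decay factor UPF1 to decapping, was the 1 gene at least 1.5-fold from NC in both knockdowns, with 6263 and 6289 against 2417 (log2 1.29 and 1.35). None of the 15 was at least 1.5-fold lower in either, against 2775 genes in KD1 and 2209 in KD2 of all 22620. Of all genes, 1436 were higher in both and 1820 lower in both.

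H19 was lower in both knockdowns at both of its probes, at low signal. The first (chr11:2016961-2017020, hg19, minus strand) read 63.0 in NC, 42.1 in KD1 and 46.5 in KD2. The second (chr11:2016674-2016733) read 157 in NC, 96.1 in KD1 and 130 in KD2. NC was the highest and KD1 the lowest at each probe.

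The probes of H19 were 1.59-fold and 1.74-fold lower in KD1 (log2 -0.66 ± 0.26 and -0.80 ± 0.21). In KD2 they were 1.39-fold and 1.24-fold lower (-0.47 ± 0.25 and -0.31 ± 0.21), short of 1.5-fold. Of kept probes with signals like those of the first H19 probe, 10% lay below -0.83 in KD1, and for the second 10% lay below -0.71, so that the second stood in that lowest 10% and the first did not. With the normexp background correction the KD1 values were -0.31 and -0.54, both short of 1.5-fold.

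H19 shares an imprinted domain with IGF2, the growth factor gene made from the paternal allele. IGF2 read 4586 in NC, 6072 in KD1 and 5948 in KD2, higher than NC in both knockdowns by less than 1.5-fold (log2 0.32 and 0.34).

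MEG3 was dim, with 4 of its 7 probes kept and 3 of these well above background on all arrays. The sixth read 194 in NC, 238 in KD1 and 260 in KD2 (log2 0.21 ± 0.21 and 0.39 ± 0.21). Probe 4 read 23.9, 27.6 and 33.7, and probe 7 read 32.3, 32.8 and 40.3. All 4 kept probes were higher than NC in KD2 (log2 0.15 to 0.47) and 2 of them in KD1 (-0.24 to 0.21), none by 1.5-fold. The first was not well above background in KD1 and so was at least 1.18-fold lower there than in NC. DLK1, the paternally expressed neighbour of MEG3, was as dim, with 34.1 in NC, 35.7 in KD1 and 41.5 in KD2.

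CCAT1, a transcript first described in colon cancer, was lower than NC in both knockdowns at both probes, and the KD1 array was the lower of the 2. The first probe read 43.4 in NC, 25.9 in KD1 and 39.95 in KD2. The second read 176 in NC, 122 in KD1 and 149 in KD2. In KD1 they were 1.78-fold and 1.53-fold lower (log2 -0.829 ± 0.30 and -0.61 ± 0.21). Of kept probes with signals like those of the first CCAT1 probe, 10% lay below -0.833 in KD1. For the second, 10% lay below -0.705, so that neither probe stood in that lowest 10%. In KD2 the differences were -0.15 ± 0.27 and -0.27 ± 0.21, the first within the extraction error.

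The first CCAT1 probe was the single lncRNA probe that differed by at least 1.5-fold between the knockdowns, 1.60-fold higher in KD2 (log2 -0.68 ± 0.30 for KD1 minus KD2), against 6.34% of all kept probes. With the normexp background correction its KD1 change was -0.25, so that at this intensity the size rests on how background was removed. The KD1 change of the second CCAT1 probe was -0.48 with normexp, also short of 1.5-fold.

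PVT1 had 7 probes over 210486 bases of chromosome 8, and they did not move together. Probes 1, 3 and 7 had log2 fold changes between -0.17 and 0.065 in both knockdowns. The second read 485 in NC, 367 in KD1 and 334 in KD2, lower in both by just under 1.5-fold (log2 -0.49 ± 0.20 and -0.57 ± 0.20). The sixth read 451 in NC, 643 in KD1 and 567 in KD2, higher in both (0.43 ± 0.20 and 0.30 ± 0.20). Probes 2 and 6 thus lay on opposite sides of NC, and their log2 fold changes differed by 0.91 ± 0.29 in KD1 and 0.87 ± 0.29 in KD2.

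PVT1 probes 4 and 5, which share 47 bases, were lower in KD2 and near NC in KD1. The fifth read 1938 in NC, 1922 in KD1 and 1261 in KD2, 1.57-fold lower in KD2 (log2 -0.65 ± 0.20) and within the error in KD1 (-0.097 ± 0.20). The fourth read 1628, 1672 and 1153. The fifth was 1.47-fold higher in KD1 than in KD2.

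MYC, the oncogene that lies between CCAT1 and PVT1, read 22006 in NC, 39950.4 in KD1 and 33580.2 in KD2. It was 1.71-fold and 1.49-fold above NC (log2 0.77 and 0.58), on both arrays in the other direction from CCAT1. Over the list of 31 neighbours of the 10 RNAs, 22 were measured, with median log2 fold changes of 0.13 and 0.15. At 1.5-fold or more, 2 of these were above NC on both knockdown arrays and none was below it on both, beside 1436 and 1820 of all 22620 genes. Both were neighbours of SNHG1, WDR74, a ribosome biogenesis factor (log2 1.26 and 1.01), and SLC3A2, an amino acid transporter subunit (0.76 and 0.69).

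TUG1 did not reach 1.5-fold at any of its 6 probes. The third read 2280 in NC, 2258 in KD1 and 2160 in KD2 (log2 -0.10 ± 0.20 and -0.11 ± 0.20). The other 5 read between 39.4 and 605 over the 3 arrays. Log2 fold changes ran from -0.34 to 0.042 in KD1 and from -0.11 to 0.28 in KD2, with 1 probe higher and 3 lower in both.

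Both knockdowns were compared together with NC by limma over all 29334 kept probes, a fit with 1 residual degree of freedom, in which NC is assumed to vary as the knockdown arrays do. At an adjusted p of 0.05 it called 0 probes (0.0% of all, 0 of the 38 lncRNA probes), although 8764 had an unadjusted p under 0.05 (29.9% of all), among them 5 of the 38. The mean log2 fold change of the NEAT1 probes was 1.31, 1.496 and 0.55, with limma adjusted p-values of 0.114, 0.115 and 0.177. On the 25282 probes well above background on all arrays, limma called 6666 (26.4%), and 4 of the 37 lncRNA probes. These were the 3 NEAT1 probes (limma adjusted p = 0.00104, 0.000977 and 0.0172) and the second PVT1 probe (adjusted p = 0.0256), which was lower. The 4 of 37 were below the share of all probes called. The methods' t-test called 0 after adjustment, with 4131 probes at an unadjusted p under 0.05 and none of the lncRNA probes. At the methods' own threshold, a p under 0.01 and 1.5-fold, it called 573 probes and 0 of the 38.

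Other lncRNAs known from cancer were set beside the 10 as a list of 40, of which 30 were measured. Their median log2 fold change was 0.028 in KD1 and -0.00093 in KD2. At least 1.5-fold in both knockdowns, 3 were lower and 3 were higher, beside 1820 and 1436 of all 22620 genes. UCA1, a bladder and colorectal cancer transcript, read 31039 in NC, 16870 in KD1 and 21010 in KD2 (log2 -0.97 and -0.60). OIP5-AS1 was lower by log2 -1.03 and -0.72, and CRNDE, a transcript raised in colorectal tumours, by -0.92 and -0.90. DLEU1 was higher by 0.89 and 0.83, and MIR31HG, the host of miR-31, by 0.79 and 0.62. The third was SOX2-OT, named here to complete the count, with an intensity of 4.24 in NC, where it was not well above background.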

How the data were processed

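The 3 deposited scanner files hold 62976 spots of single-colour (Cy3) Agilent SurePrint arrays. The authors extracted the intensity of each spot, corrected for background and spatial trend, with Agilent Feature Extraction 10.7.1.1, per the file headers and the submitters' processing notes, without normalization between arrays. Deposited flags (0 or 1) were used as given. The deposited series-level intensity table matched these signals within 0.1% for all 42 lncRNA probes. Control and outlier-flagged spots were left out, log2 intensity was scaled to the 75th percentile of each array, and values not well above background were set to the higher of their own and the array's lowest value well above background (an intensity of 16.2 to 17.7), so that folds against them are limits. A probe was kept if 1 or more arrays had it well above background, and for lists the brightest probe stood for a gene. Positions are hg19 as deposited, and start sites and promoters are those of the first start that RefSeq lists for a gene.

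KD1 and KD2 were each set against NC at 1.5-fold with no test, and both together by limma 3.58.1 (R 4.3.3, intensity trend, Benjamini-Hochberg). The limma fit was also run on simulated arrays with equal spread on every array and no slide difference. That run cannot show how the fit behaves with NC alone on its slide. Python 3.11.15, numpy 2.4.6, pandas 2.3.3 and matplotlib 3.10.9 were used. What is called the methods' t-test is Student's t-test, named in the study's statistics, run here on both knockdowns together against NC. Its spread came from the knockdowns alone. The study's array methods give thresholds but name no test, so this is not the authors' own array analysis. The number of arrays limits the precision. The lncRNAs and lists were chosen with earlier results of these data known. Named from the lists were those detected on all arrays and at least 1.5-fold from NC in the same direction in both knockdowns, and IGF2, DLK1 and MYC, and outside this rule GAS5-AS1 and SOX2-OT, after their values were seen, to complete counts.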

Additional observations from a re-analysis of the deposited data

How the results depend on the processing

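No value of a lncRNA probe past 1.5-fold changed direction under quantile normalization, normexp background correction, a percentile over detected probes, no floor or the series-level table, and 375 values of single probes moved by less than the extraction error. Another 5, of H19, MEG3 and CCAT1, moved under normexp. In KD1 the number of lower probes went from 4 to 0 with normexp and with a 2-fold threshold, and to 2 genes with the mean over the probes or the brightest probe of a gene, while the higher ones went from 3 probes to 1 gene with either. The 3 became 2 with quantile normalization, where NEAT1 probe 3 fell short, and with a 2-fold threshold, and the 4 became 5 with no floor and with the series-level table, where MEG3 probe 1 was added. In KD2 the lower count of 1 became 2 with the percentile over detected probes, and 0 with a 2-fold threshold, the mean or the brightest probe. The higher count of 2, in KD2 and in both knockdowns alike, became 1 with the mean and 0 with the brightest probe, which for NEAT1 is the third. Between the knockdowns the count of 1 became 0 with normexp and 2 with no floor or the series-level table. With limma the 0 calls became 6666 on probes well above background on all arrays (4 of lncRNAs), 3185 with quantile normalization (2 of lncRNAs) and 4178 with normexp (3 of lncRNAs), and stayed 0 without the intensity trend (smallest adjusted p 0.139) and with the methods' t-test (0.137). The cause of these differences was not tested. All 36 alternative list medians moved by less than the median extraction error.

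No paired analysis was possible because each group has 1 array. Leaving out an array would leave a single comparison without 1 of its groups. The dimmest probes of H19, CCAT1 and MEG3 lie near background, where an intensity of 16.2 to 17.7 was the lowest level well above it. Their brightest probes lie further from it. The extraction error of the log2 fold changes reached 0.26 for H19, 0.30 for CCAT1 and 0.52 for MEG3, the last at its first probe.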
